A study of Homo sapiens with 12 samples.

Results

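The mitosis genes are a set of genes whose products build the spindle, check and move the chromosomes, drive the cell into mitosis and divide it. The set was taken as a list of gene symbols, drawn up with earlier results of these data known. Of the 59050 gene names in the count table, 56 were members, and all 56 were measured well enough to be tested among 16208 genes. The lowest count of a member in a library was 16. A further listed gene was not analysed here.

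MyLa cells, an established line of cutaneous T cell lymphoma, were profiled by bulk RNA sequencing after 24 h of treatment. The 4 groups of 3 libraries each were the combination of 3.2 nM romidepsin with 5.7 uM afatinib dimaleate, 3.2 nM romidepsin alone, 5.7 uM afatinib dimaleate alone, and the solvent DMSO. Romidepsin inhibits histone deacetylases, afatinib inhibits kinases of the epidermal growth factor receptor family, and the series asks about their joint effect. All groups were kept in 20 ng/mL interleukin-2, and the DMSO volume was the same as in the combination. Nothing in the labels says whether separate cultures gave the 3 libraries of each treatment. The p-values thus speak of the spread among these libraries alone, possibly a technical spread, and of a single line.

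As background, entry into mitosis is driven by the kinase CDK1 bound to cyclin A or cyclin B, and mitosis ends when the anaphase promoting complex marks cyclin B and securin for destruction. Transcripts of most mitosis genes are low in resting and G1 cells and build up in G2 and mitosis. Their promoters are known for CCAAT boxes, bound by the factor NF-Y, and for the cell cycle homology region (CHR), which the MuvB core binds, as a repressor within the DREAM complex and as an activator together with the factors B-MYB and FOXM1. In bulk RNA, fewer cells in G2 or mitosis and less RNA of these genes per cell cannot be told apart.

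Libraries held 8972228 to 12696653 counts of read pairs, and any pair of libraries of a group differed by more than counting error. The summed counts of 13 T cell markers were 3683 to 4217 in the combination, 4829 to 6720 in romidepsin, 11652 to 13518 in afatinib and 15839 to 19749 in DMSO. Most of each sum came from IL2RA, with 2785 to 3141 counts in the combination and 12142 to 14960 in DMSO. CD8A was instead highest in afatinib, with 167 to 189 counts against 99 to 110 in DMSO. IL2RA, CD2, CD3D, CD3G and CD247 were present in all libraries, whereas CD3E had at most 4 counts, CD4 at most 1, CD7 at most 2 and CD5 at most 5. KRT5, a keratin of skin epithelium, had 43 counts in combination replicate 1, 126 in afatinib replicate 3, 59 in DMSO replicate 1 and 94 in DMSO replicate 2, and at most 1 count in the other 8 libraries. The main counts of called members are therefore also given without those 4 libraries, a check added after seeing the data that leaves 1 DMSO library, which is assumed to vary like the other groups. Those 4 are named the libraries with keratin reads below, which means more than 10 counts of KRT5. The keratin KRT10 was read in all 12 libraries (394 to 1015 counts). The keratinocyte list of 9 genes summed to 1627 to 1820 counts in the combination, 1198 to 1780 in romidepsin, 2026 to 2692 in afatinib and 2282 to 2786 in DMSO, most of it from SFN and KRT10, and KRT1 was at 0. The B cell list of 5 genes summed to 45 to 50 counts in the combination, 44 to 85 in romidepsin, 20 to 29 in afatinib and 40 to 61 in DMSO, with MS4A1 at 0. Of these, PAX5 had 4 to 8 counts in the combination, 19 to 38 in romidepsin, 0 to 3 in afatinib and 4 to 5 in DMSO. The myeloid list of 5 genes summed to 258 to 292, 329 to 533, 367 to 441 and 309 to 423 counts in the same order of groups, and LYZ had at most 2. Its gene CSF1R had 168 to 197 counts in the combination, 249 to 441 in romidepsin, 52 to 72 in afatinib and 64 to 87 in DMSO, and CD14 had 31 to 39 in the combination and at most 4 in the other libraries. The fibroblast list held 191 to 214 counts in the combination, 227 to 378 in romidepsin, 1058 to 1235 in afatinib and 1745 to 2275 in DMSO, from COL1A1 and COL3A1, with DCN and LUM at 0. The part of these markers in the results was not tested.

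Mitosis genes were lower in all 3 treated groups than in DMSO, and lowest in the combination. Together they took 0.299% ± 0.00361 of all counts in the combination, 0.456% ± 0.0153 in romidepsin, 0.537% ± 0.0103 in afatinib and 0.743% ± 0.00476 in DMSO (mean ± SD, n = 3 each). Their summed level was 2898 ± 33.0, 4695 ± 163, 5212 ± 80.5 and 7725 ± 37.8 TMM-scaled CPM (counts relative to library size) in the same order, which is the unit of all levels that follow. A gene is called where edgeR's quasi-likelihood test gave a p below 0.05 after adjustment over all 16208 tested genes (Benjamini-Hochberg). Against DMSO, the combination lowered 54 of the 56 members and raised 2, where 37.1% of all tested genes were called lower and 37.2% higher. The members' median log2 fold change was -1.41, and 40 members were at least 2-fold lower, as were 18.3% of all genes. With romidepsin 46 members fell, 2 rose and 8 were not called, at a median of -0.66 (31.5% of all genes lower, 31.1% higher). Of the 56, 11 were at least 2-fold lower and 1 at least 2-fold higher, against 10.9% and 13.3% of all genes. Afatinib lowered 46 members and raised 0, with 10 not called, at a median of -0.56 (23.3% of all genes lower, 22% higher), and 2 members were at least 2-fold lower (2.54% of all genes). The median over all tested genes was -0.0050, -0.0025 and 0.0016 in these comparisons. Without the 4 libraries with keratin reads, 50 members were lower and 2 higher in the combination (28.1% and 30.5% of all genes), 39 and 2 in romidepsin (23.3% and 25.1%), and 38 and 0 in afatinib (11.3% and 12.3%), at medians of -1.30, -0.60 and -0.51. The calls that ended there were, with the combination, those of AURKB, KIF20B (-0.32), NDC80 and PRC1 (-0.59). With romidepsin they were those of BUB1, TTK, CDC20, NDC80, ANLN (-0.21), ECT2 (-0.32) and PRC1 (-0.44). With afatinib they were those of BUB3, TTK, CDC25B, CDCA8, CCNB2 (-0.36), DLGAP5 (-0.48), KIF14 (-0.31) and TPX2 (-0.26).

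For 35 of the 56 members the libraries fell in the same order at both ends: all 3 combination libraries lay below the other 9, and all 3 DMSO libraries lay above the other 9, a pattern seen in 9.08% of all tested genes. The combination alone was below the other 9 libraries for 40 members (18.8% of all genes), and DMSO alone was above them for 41 (13.4%). The members' median coefficient of variation between replicates was 6.22% in the combination, 5.85% in romidepsin, 5.67% in afatinib and 5.24% in DMSO. That of all genes was not computed. Some members at low levels varied more, such as KIF15 in romidepsin (2.40 ± 0.971 CPM).

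**Figure D1:**
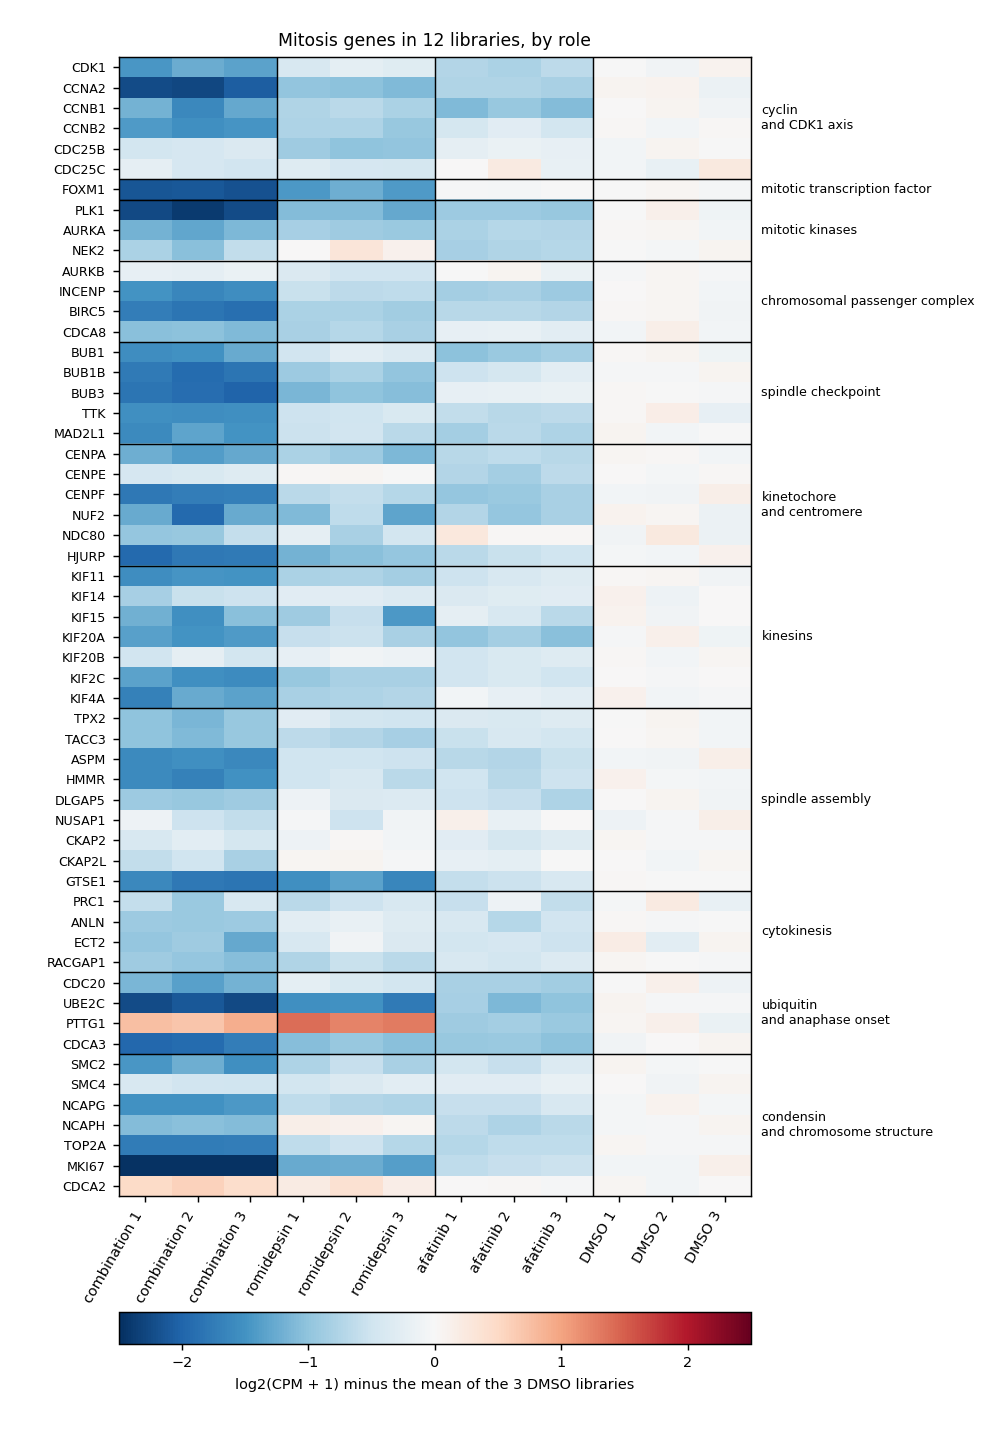
Heat map of log2(CPM + 1) of 56 mitosis genes (rows, ordered by role) in 12 libraries (columns), minus the mean of the 3 DMSO libraries, with blue for lower and red for higher. The 3 combination columns are the darkest blue in most rows, and the rows of PTTG1 and CDCA2 are red in the combination and in romidepsin.

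Promoters of 47 of the 56 members were found in RefSeq (GRCh38.p14), as windows from 250 bases before to 50 after a listed start of the gene. The first listed window of each member was used, and other starts of the gene were not searched. All windows set beside them for comparison were not reduced to a single window per gene. For 40 of the 47, bases after the start were found in a transcript of the gene in GENCODE 29. TTTGAA, a common form of the CHR, was found on either strand in 33 of these 47 windows (70.2%), against 15.2% of all 35116 windows. CCAAT, searched on both strands (as ATTGG on the other), was also in 33 windows (70.2%), against 34.6% of all. Both motifs together stood in 25 members' windows (53.2%), against 5.9% of all, and at least 2 copies of CCAAT in 21 (44.7%), against 10.8%. TTCGAA, a variant of the CHR, was in 2 (4.26%), against 1.45%. Matches may overlap, and each was counted. Of 54 promoters of other mitosis genes, 48.1% held TTTGAA and 64.8% CCAAT.

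The following 5 windows were chosen from members with several matches, so that their genes cover the range of the responses. Matches of TTTGAA and CCAAT on either strand are in capitals and the rest in lower case, 5′ to 3′ on the strand of the gene. MKI67 (chr10:128126374-128126673, minus strand) and PLK1 (chr16:23678639-23678938, plus strand) were among the most lowered in the combination, and CCNB2 (chr15:59104896-59105195, plus strand) fell with every treatment. CCNB1 (chr5:69166900-69167199, plus strand) fell most of all members with afatinib, and PTTG1 (chr5:160421605-160421904, plus strand) rose with romidepsin.
MKI67: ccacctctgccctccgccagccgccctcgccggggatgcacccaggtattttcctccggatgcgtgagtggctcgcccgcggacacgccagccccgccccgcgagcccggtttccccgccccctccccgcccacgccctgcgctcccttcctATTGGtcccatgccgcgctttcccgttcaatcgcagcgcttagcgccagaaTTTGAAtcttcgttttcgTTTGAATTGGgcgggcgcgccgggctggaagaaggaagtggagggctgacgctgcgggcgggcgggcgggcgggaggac
PLK1: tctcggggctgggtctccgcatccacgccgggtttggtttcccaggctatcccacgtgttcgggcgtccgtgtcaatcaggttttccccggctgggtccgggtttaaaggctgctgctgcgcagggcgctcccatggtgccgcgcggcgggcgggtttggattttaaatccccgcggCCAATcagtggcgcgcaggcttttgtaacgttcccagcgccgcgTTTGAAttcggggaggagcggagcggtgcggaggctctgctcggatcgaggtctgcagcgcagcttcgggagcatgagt
CCNB2: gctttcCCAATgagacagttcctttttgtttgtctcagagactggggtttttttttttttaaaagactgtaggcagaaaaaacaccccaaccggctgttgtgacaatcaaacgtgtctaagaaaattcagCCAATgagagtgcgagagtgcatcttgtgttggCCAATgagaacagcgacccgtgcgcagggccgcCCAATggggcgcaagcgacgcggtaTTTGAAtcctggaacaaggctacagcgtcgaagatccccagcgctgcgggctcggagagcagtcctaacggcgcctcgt
CCNB1: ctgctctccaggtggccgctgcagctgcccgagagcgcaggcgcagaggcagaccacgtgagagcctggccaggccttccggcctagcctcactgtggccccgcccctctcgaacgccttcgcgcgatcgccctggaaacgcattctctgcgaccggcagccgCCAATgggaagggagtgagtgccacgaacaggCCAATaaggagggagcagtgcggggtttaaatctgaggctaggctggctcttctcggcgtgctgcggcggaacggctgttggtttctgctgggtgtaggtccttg
PTTG1: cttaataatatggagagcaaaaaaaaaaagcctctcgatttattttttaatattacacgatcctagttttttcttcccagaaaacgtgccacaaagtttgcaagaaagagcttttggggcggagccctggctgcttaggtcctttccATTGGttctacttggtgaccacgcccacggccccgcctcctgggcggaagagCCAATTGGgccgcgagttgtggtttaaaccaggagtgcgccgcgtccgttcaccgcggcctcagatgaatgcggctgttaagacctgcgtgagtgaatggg

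With the first transcribed base as +1, PLK1 and CCNB2 each held TTTGAA at -29, and MKI67 held it at -47 and -29. The match of MKI67 at -29 shares 1 base with a CCAAT match at -24 on the other strand. CCNB2 held CCAAT at 4 places (-244, -120, -87 and -54). The windows of CCNB1 and PTTG1 held no TTTGAA, and forms of the CHR other than TTTGAA and TTCGAA were not searched. The window of CCNA2, which is not shown, held no TTTGAA either, and CCNA2 changed by -2.22 with the combination. CCNB1 held CCAAT at -87 and -55, and PTTG1 at -103, -51 and -48, of which the last 2 overlap on opposite strands. Across members, the median log2 fold change of the combination against DMSO was -1.52 for the 33 with TTTGAA (range -2.48 to -0.40) and -0.93 for the 14 without it (-2.22 to 0.79). With romidepsin the medians were -0.67 and -0.46, and with afatinib -0.54 and -0.74. Split by CCAAT, the medians of the 33 with it and the 14 without were -1.45 and -1.02 with the combination. They were -0.61 and -0.73 with romidepsin, and -0.67 and -0.46 with afatinib. Members are not independent of each other, so these medians are descriptions. A match is not a shown binding site, and a window without TTTGAA may still hold another form of the CHR.

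The cyclins and CDK1, which drive entry into mitosis, were lower in every treated group. All 6 genes of the group fell with the combination, 6 with romidepsin and 5 with afatinib, at medians of -1.38, -0.81 and -0.57. CDK1, the mitotic kinase itself (chromosome 10, 60778331 to 60794852), had 26, 30.6 and 28.5 CPM in the combination, 55.2, 61.3 and 59.3 CPM in romidepsin, 43.7, 41.8 and 46.3 CPM in afatinib and 73.2, 69.3 and 77.6 CPM in DMSO. The groups did not overlap, and the change was -1.37 ± 0.082 with the combination, -0.33 ± 0.077 with romidepsin and -0.74 ± 0.079 with afatinib (log2 ± SE against DMSO; edgeR adjusted p = 2.71e-20, 0.000261 and 6.86e-11). CCNA2, which encodes cyclin A2 (chromosome 4, 121816444 to 121823933), was the most lowered of the group in the combination. It had 38.8, 37.7 and 44.2 CPM in the combination, 93.4, 90.7 and 86.9 CPM in romidepsin, 110.1, 109.7 and 106 CPM in afatinib and 195, 197 and 169.5 CPM in DMSO. That is 4.65-fold lower with the combination, 2.07-fold with romidepsin and 1.72-fold with afatinib, and again no group overlapped another.

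CCNB1, cyclin B1 (chromosome 5, 69167135 to 69178245), had 29.7, 21.8 and 27.4 CPM in the combination, 40.4, 42.5 and 39.1 CPM in romidepsin, 31.3, 34.8 and 31.8 CPM in afatinib and 69.2, 71.7 and 64.6 CPM in DMSO. It was the member of its group most lowered by afatinib (-1.07 ± 0.089, against -0.75 ± 0.087 with romidepsin), and the combination (-1.39 ± 0.090) differed from afatinib alone by -0.32 (adjusted p = 0.00325), a call lost without combination replicate 2 (-0.20, adjusted p = 0.0721). CCNB2, cyclin B2, changed by -1.55, -0.86 and -0.41 with the combination, romidepsin and afatinib. CDC25B, a phosphatase that activates CDK1 (chromosome 20, 3786772 to 3806121), had 140.4, 143 and 150.2 CPM in the combination, 104, 95.8 and 97.3 CPM in romidepsin, 165, 171 and 166 CPM in afatinib and 184, 202 and 191 CPM in DMSO. Romidepsin alone gave its lowest levels (-0.96 ± 0.061), and the combination (-0.41 ± 0.059) lay above romidepsin by 0.55 ± 0.061. Its small difference with afatinib (-0.20, adjusted p = 0.00413) was -0.15 and not called without the 4 libraries with keratin reads (adjusted p = 0.26), nor with library size only (-0.10). CDC25C, the related phosphatase, was at 4.54 ± 0.532, 4.47 ± 0.224, 6.32 ± 1.04 and 6.24 ± 1.15 CPM in the combination, romidepsin, afatinib and DMSO. Its calls with the combination (-0.47) and romidepsin (-0.48) were each lost without DMSO replicate 3 (-0.32 and -0.33, adjusted p = 0.179 and 0.205). The call with the combination was also lost without combination replicate 2 (-0.44) or 3 (-0.41), afatinib replicate 1 (-0.42) or 3 (-0.42) or DMSO replicate 1 (-0.47), and that with romidepsin without romidepsin replicate 2 (-0.47) or 3 (-0.45). With afatinib it was 0.0063 (adjusted p = 0.984). Of the exon bases of CDC25C, 8.78% overlap FAM53C on the other strand, which had 45119 counts over all libraries against 735 for CDC25C.

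FOXM1, a transcription factor that activates late cell cycle genes (chromosome 12, 2857681 to 2877155), differed strongly between the drugs. It had 51.7, 52.9 and 50.4 CPM in the combination, 84.9, 98.9 and 86.5 CPM in romidepsin, 226, 225 and 229 CPM in afatinib and 231, 239 and 225 CPM in DMSO. The combination was 4.48-fold lower than DMSO (log2 -2.16 ± 0.065, edgeR adjusted p = 2.53e-32) and romidepsin 2.58-fold lower, whereas the afatinib libraries overlapped the DMSO libraries (-0.030 ± 0.059, adjusted p = 0.712). The combination lay below romidepsin alone too (-0.80). Of its annotated exon bases, 15.9% overlap ITFG2 on the other strand, and the counting did not use strand.

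The mitotic kinases fell together in the combination, 3 of 3, with 2 of 3 called lower in romidepsin and 3 of 3 in afatinib. PLK1, polo-like kinase 1, which acts from mitotic entry to cytokinesis (chromosome 16, 23677656 to 23690367), had 53.6, 48.7 and 54.2 CPM in the combination, 122, 121 and 106 CPM in romidepsin, 138, 138 and 133 CPM in afatinib and 255.3, 281 and 241 CPM in DMSO. Its log2 change was -2.31 ± 0.069 with the combination, -1.16 ± 0.065 with romidepsin and -0.93 ± 0.064 with afatinib, with no overlap between groups. AURKA, the Aurora kinase of centrosomes and spindle poles (chromosome 20, 56369389 to 56392337), had 61.2, 56.7 and 64.2 CPM in the combination, 78.4, 75.6 and 73.1 CPM in romidepsin, 81.3, 85 and 84.9 CPM in afatinib and 143, 145 and 135 CPM in DMSO. Its changes were -1.21 ± 0.067 with the combination, -0.90 ± 0.066 with romidepsin and -0.75 ± 0.065 with afatinib. NEK2, a kinase of centrosome separation, was lower with afatinib (-0.79) and the combination (-0.84), and its value with romidepsin was 0.14 (adjusted p = 0.219).

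Genes of the chromosomal passenger complex, which corrects faulty attachments of chromosomes to the spindle, fell in 4 of 4 cases with the combination and with romidepsin, and in 3 of 4 with afatinib. BIRC5, survivin, the subunit that brings the complex to the centromere (chromosome 17, 78214186 to 78225636), had 97.7, 91.5 and 87.7 CPM in the combination, 188, 189 and 179.6 CPM in romidepsin, 202, 202 and 197 CPM in afatinib and 336, 338 and 308 CPM in DMSO. INCENP, the scaffold subunit (chromosome 11, 62123998 to 62153169), had 80.6, 73.9 and 77.4 CPM in the combination, 157, 146 and 148 CPM in romidepsin, 127, 130.2 and 123 CPM in afatinib and 233, 238 and 219.6 CPM in DMSO. Both fell with all 3 treatments without overlap of any groups, with log2 changes of -1.83 and -1.58 in the combination. AURKB, the kinase of the complex (chromosome 17, 8204733 to 8210600), did not follow them. It had 159.8, 158 and 165 CPM in the combination, 144, 132 and 131 CPM in romidepsin, 183, 194 and 164 CPM in afatinib and 179.9, 192 and 182 CPM in DMSO. Afatinib overlapped DMSO (-0.033 ± 0.061, adjusted p = 0.696), romidepsin gave the lowest levels (-0.44 ± 0.062), and the combination lay above romidepsin (0.25 ± 0.062). The call with the combination (-0.20, adjusted p = 0.00355) was lost without the 4 libraries with keratin reads (-0.10, adjusted p = 0.357) and with scaling by library size only (-0.094, adjusted p = 0.165). CDCA8, borealin, was -1.07, -0.79 and -0.22 in the 3 comparisons, and the last was not called without afatinib replicate 3 (-0.19), DMSO replicate 2 (-0.15) or the 4 libraries with keratin reads (-0.087).

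**Figure D2:**
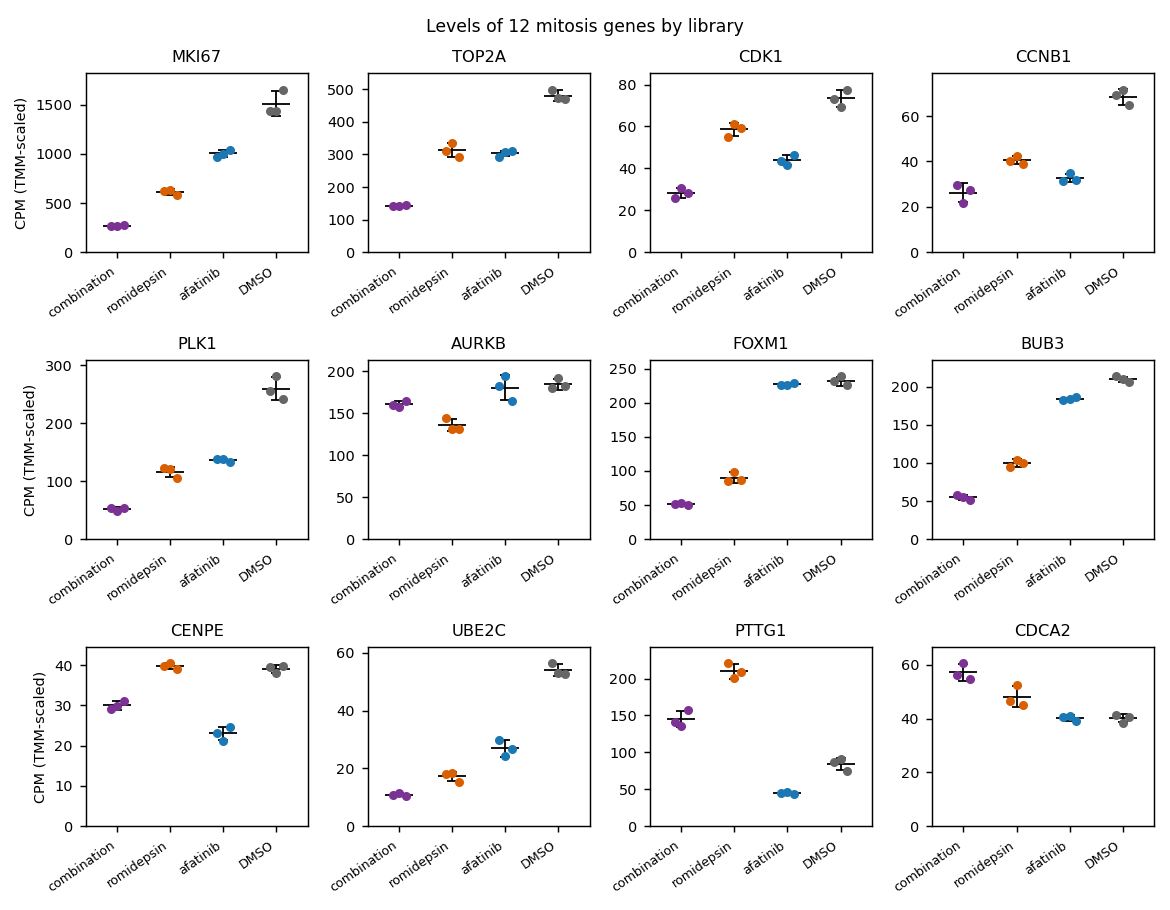
Levels of 12 mitosis genes in CPM (vertical axes from 0) in each library of the combination, romidepsin, afatinib and DMSO. Points are libraries, black bars the mean ± SD of 3. MKI67, TOP2A, CDK1 and PLK1 step down to the combination, FOXM1, BUB3 and AURKB lie at or close to DMSO in afatinib, and PTTG1 is highest in romidepsin.

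The spindle checkpoint, which holds anaphase until all chromosomes are attached, fell in 5 of 5 members with each treatment, at medians of -1.71 with the combination, -0.57 with romidepsin and -0.71 with afatinib. All 5 were at least 2-fold lower in the combination. BUB1B, the inhibitor BUBR1 of the anaphase promoting complex (chromosome 15, 40161023 to 40221136), had 11.2, 9.93 and 10.8 CPM in the combination, 21, 22.9 and 19.98 CPM in romidepsin, 28.1, 29.7 and 33.4 CPM in afatinib and 39.6, 39.7 and 42.3 CPM in DMSO. BUB1, the kinase that recruits the checkpoint to kinetochores (chromosome 2, 110637528 to 110678063), had 21.5, 22.1 and 26.7 CPM in the combination, 46.7, 54.2 and 51.1 CPM in romidepsin, 31.5, 33.6 and 35.8 CPM in afatinib and 66.5, 68.6 and 60.8 CPM in DMSO. For BUB1 afatinib gave the lower levels of the single drugs (-0.95 ± 0.087, against -0.37 ± 0.084 with romidepsin). BUB3, their shared binding partner (chromosome 10, 123154402 to 123170467), had 58.2, 55.3 and 51.8 CPM in the combination, 94.6, 104 and 100.003 CPM in romidepsin, 182, 184 and 186 CPM in afatinib and 214, 209.6 and 207 CPM in DMSO. There the order was turned round: romidepsin lowered BUB3 more (-1.08) than afatinib did (-0.19, adjusted p = 0.00676). That afatinib call was lost without afatinib replicate 1 (-0.17, adjusted p = 0.063) or DMSO replicate 1 (-0.16, adjusted p = 0.0645), without the 4 libraries with keratin reads (-0.14) and with library size only (-0.090). TTK, the kinase MPS1, and MAD2L1, the checkpoint inhibitor MAD2, were -1.71 and -1.49 with the combination. Without the 4 libraries with keratin reads, BUB1 with romidepsin was -0.22 (adjusted p = 0.13). TTK, at -0.50 with romidepsin and -0.71 with afatinib, was then -0.23 and -0.46 (adjusted p = 0.339 and 0.115), and none of these 3 was called.

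Kinetochore and centromere genes fell in 6 of 6 cases with the combination, and in 5 of 6 with either drug. HJURP, the chaperone that loads the centromeric histone (chromosome 2, 233833416 to 233854566), had 25.9, 28.9 and 29.6 CPM in the combination, 44.8, 49.2 and 52.4 CPM in romidepsin, 64.2, 69.96 and 72.9 CPM in afatinib and 99.6, 98.1 and 111 CPM in DMSO. NUF2 and NDC80 are partners in the complex that grips microtubules. NUF2 (chromosome 1, 163266576 to 163355764) had 5.86, 3.28 and 5.88 CPM in the combination, 6.62, 9.62 and 5.55 CPM in romidepsin, 8.94, 7.38 and 8.35 CPM in afatinib and 16.5, 16 and 13.9 CPM in DMSO. NDC80 (chromosome 18, 2571557 to 2616635) had 2.88, 2.9 and 3.97 CPM in the combination, 5.5, 3.32 and 4.49 CPM in romidepsin, 8.02, 6.72 and 6.75 CPM in afatinib and 6.09, 7.98 and 5.78 CPM in DMSO. Both are low, and their romidepsin and combination libraries overlapped. NUF2 changed by -1.63, -1.12 and -0.91 with the combination, romidepsin and afatinib, whereas NDC80 was -1.01 and -0.55 with the combination and romidepsin and 0.12 with afatinib (adjusted p = 0.643). NDC80 with romidepsin was not called without romidepsin replicate 2 (-0.40) or 3 (-0.54) or DMSO replicate 2 (-0.40). Without the 4 libraries with keratin reads, NDC80 was not called with the combination (-0.68, adjusted p = 0.0631) or romidepsin (-0.31, adjusted p = 0.396). CENPE, a motor that carries chromosomes to the spindle equator (chromosome 4, 103105806 to 103198409), had 29, 29.7 and 31.1 CPM in the combination, 39.8, 40.4 and 39.1 CPM in romidepsin, 23.1, 21.2 and 24.7 CPM in afatinib and 39.5, 38 and 39.9 CPM in DMSO. The romidepsin libraries overlapped those of DMSO (0.022 ± 0.087, adjusted p = 0.84), while afatinib lowered CENPE (-0.76), and the combination (-0.39) lay between the single drugs. CENPA, the centromeric histone, and CENPF, a large kinetochore protein, changed by -1.36 and -1.76 with the combination.

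Mitotic kinesins, the motors of the spindle, fell in 7 of 7 cases with the combination, 6 of 7 with romidepsin and 5 of 7 with afatinib. KIF11, the motor Eg5 that pushes the spindle poles apart (chromosome 10, 92593130 to 92655395), had 61.5, 64.9 and 63.8 CPM in the combination, 105, 106 and 101 CPM in romidepsin, 126, 138 and 145 CPM in afatinib and 186, 188 and 172 CPM in DMSO. Its groups did not overlap (-1.52 ± 0.065 with the combination, -0.81 ± 0.063 with romidepsin, -0.41 ± 0.062 with afatinib). KIF20A, a kinesin of the central spindle (chromosome 5, 138178719 to 138187723), had 44.4, 40.7 and 42.6 CPM in the combination, 77.1, 79.2 and 65.7 CPM in romidepsin, 57.8, 63.4 and 55.4 CPM in afatinib and 114, 127 and 107 CPM in DMSO. Afatinib lowered KIF20A more (-0.98 ± 0.076) than romidepsin did (-0.65 ± 0.075), and the combination stood at -1.45 ± 0.078. KIF15, a motor that backs up KIF11 (chromosome 3, 44761721 to 44873376), was near the bottom of the measured range with 1.8, 1.22 and 2.14 CPM in the combination, 2.49, 3.32 and 1.39 CPM in romidepsin, 4.51, 3.88 and 3.05 CPM in afatinib and 5.84, 5.05 and 5.52 CPM in DMSO. It changed by -1.67 with the combination, and its value with afatinib was -0.53 (adjusted p = 0.0725). KIF4A, a chromosome-bound kinesin, was -1.54 with the combination and -0.83 with romidepsin, with -0.20 in afatinib (adjusted p = 0.209). KIF2C, which takes microtubules apart at centromeres, changed by -1.53, -0.87 and -0.46 with the combination, romidepsin and afatinib. KIF20B, a kinesin of cytokinesis, was -0.15 with romidepsin (adjusted p = 0.184), and KIF14, of the same stage, fell in all 3.

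Spindle assembly genes were divided: 9 of 9 were lower with the combination, 5 of 9 with romidepsin and 7 of 9 with afatinib. GTSE1, a microtubule-binding protein of G2 and mitosis (chromosome 22, 46296870 to 46330810), had 41.6, 36.6 and 35.4 CPM in the combination, 43.8, 49.95 and 41 CPM in romidepsin, 84.6, 88.5 and 97.6 CPM in afatinib and 130.3, 127 and 127 CPM in DMSO. It was the most lowered of the group with romidepsin (-1.52 ± 0.077) and with the combination (-1.77 ± 0.077), and the libraries of these groups overlapped. TPX2, which activates Aurora A on the spindle (chromosome 20, 31739271 to 31801805), had 55.8, 50.6 and 58.2 CPM in the combination, 91.9, 81.5 and 79.5 CPM in romidepsin, 87.8, 85.9 and 89.6 CPM in afatinib and 112, 119 and 107 CPM in DMSO. The single drugs overlapped for TPX2 (-0.42 with romidepsin and -0.36 with afatinib), and the combination was -1.04. DLGAP5, a stabiliser of spindle fibres (chromosome 14, 55148112 to 55191608), had 6.4, 6.19 and 6.49 CPM in the combination, 11.8, 9.74 and 9.87 CPM in romidepsin, 8.66, 8.24 and 7.07 CPM in afatinib and 13, 13.5 and 12.1 CPM in DMSO. It fell with afatinib (-0.69 ± 0.15) and was -0.29 ± 0.15 with romidepsin (adjusted p = 0.0746). HMMR, ASPM and TACC3, further spindle proteins, fell with all 3 treatments, and their changes with the combination were -1.71, -1.60 and -1.02. CKAP2 and CKAP2L, spindle proteins related to each other, were -0.059 and 0.028 with romidepsin (adjusted p = 0.417 and 0.77), and CKAP2L was -0.15 with afatinib (adjusted p = 0.119). NUSAP1, a protein that bundles microtubules, is uncertain, since 81.4% of its exon bases overlap other genes and it had 447 counts over all libraries. Its combination libraries overlapped those of DMSO, and its values were -0.24 with romidepsin and -0.014 with afatinib (adjusted p = 0.428 and 0.971). Its call with the combination (-0.55, adjusted p = 0.0491) was lost in 14 alternatives, among them those without combination replicate 2 (-0.48) or 3 (-0.42), afatinib replicate 1 (-0.50) or 3 (-0.50), or DMSO replicate 1 (-0.58), 2 (-0.58) or 3 (-0.47).

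Cytokinesis genes had the smallest median fall of the roles in the combination, with 4 of 4 lower in the combination (median -0.97), 4 of 4 in romidepsin (-0.49) and 3 of 4 in afatinib (-0.52), and 1 at least 2-fold lower in the combination. ECT2, which switches on the GTPase of the cleavage furrow (chromosome 3, 172750682 to 172821474), had 14.9, 15.7 and 11.7 CPM in the combination, 22.5, 28.1 and 23 CPM in romidepsin, 21.7, 22.2 and 20.6 CPM in afatinib and 34.2, 24.9 and 31.4 CPM in DMSO. ANLN, anillin, a scaffold of the contractile ring (chromosome 7, 36389821 to 36453791), had 17.2, 17.1 and 17.3 CPM in the combination, 27.4, 29.3 and 26.5 CPM in romidepsin, 25, 19.9 and 23.7 CPM in afatinib and 34.1, 32.8 and 33 CPM in DMSO. Each was lowered most by the combination (-1.11 and -0.95). The smaller calls with romidepsin, -0.31 for ECT2 and -0.27 for ANLN, were lost without romidepsin replicate 3 (-0.27 and -0.23) or DMSO replicate 1 (-0.19 and -0.22), and that of ECT2 without romidepsin replicate 1 (-0.26). PRC1, which bundles microtubules of the central spindle (chromosome 15, 90966040 to 90995629), had only 1.8, 1.22 and 2.22 CPM in the combination, 1.63, 1.95 and 2.2 CPM in romidepsin, 1.84, 2.84 and 1.77 CPM in afatinib and 3.08, 3.94 and 2.72 CPM in DMSO. At these levels, with 307 counts in all and 61.9% of its exon bases shared with other genes, PRC1 is uncertain. It was -0.88 with the combination and -0.74 with romidepsin, and -0.59 with afatinib (adjusted p = 0.0958). The call with the combination was lost without combination replicate 2 (-0.68), and the romidepsin call without romidepsin replicate 1 (-0.62) or 2 (-0.74) or DMSO replicate 1 (-0.75) or 2 (-0.59). RACGAP1, a partner of ECT2 at the central spindle, changed by -0.98, -0.66 and -0.40 in the 3 comparisons with DMSO.

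Among the genes of ubiquitination and anaphase onset, UBE2C and CDC20 fell with every treatment, whereas securin rose with romidepsin and the combination. UBE2C, the ubiquitin-conjugating enzyme of the anaphase promoting complex (chromosome 20, 45812576 to 45816957), had 10.6, 11.6 and 10.5 CPM in the combination, 18, 18.2 and 15.3 CPM in romidepsin, 29.9, 24.2 and 26.6 CPM in afatinib and 56.4, 53.2 and 52.6 CPM in DMSO. It was 4.95-fold lower with the combination, 3.16-fold with romidepsin and 2.01-fold with afatinib. CDC20, the activator of that complex (chromosome 1, 43358981 to 43363203), had 186, 161 and 182 CPM in the combination, 346, 317 and 301 CPM in romidepsin, 236, 235 and 224 CPM in afatinib and 411, 449.5 and 379.6 CPM in DMSO. Here romidepsin had the smaller effect (-0.36 ± 0.061, against -0.84 ± 0.062 with afatinib), and it was -0.20 and not called without the 4 libraries with keratin reads (adjusted p = 0.0535). PTTG1, securin, the inhibitor of separase (chromosome 5, 160421855 to 160428739), had 142, 136 and 157 CPM in the combination, 221, 200.4 and 208 CPM in romidepsin, 44.7, 46 and 43.4 CPM in afatinib and 86.3, 91 and 74.6 CPM in DMSO. All 3 romidepsin libraries were the highest, and all 3 afatinib libraries the lowest, with no overlap of groups. PTTG1 rose 2.5-fold with romidepsin (log2 1.32 ± 0.068, adjusted p = 2.07e-22) and 1.73-fold with the combination (0.79 ± 0.069, adjusted p = 1.55e-14), and fell 1.88-fold with afatinib (-0.91 ± 0.075, adjusted p = 2.63e-14). PTTG1 has near-identical copies elsewhere in the genome, and reads that map to several places were not counted, so its level is uncertain. CDCA3, a protein that triggers destruction of a mitotic inhibitor, changed by -1.90, -1.04 and -0.99 with the combination, romidepsin and afatinib.

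Chromosome structure genes held the largest change of all members against DMSO, MKI67 in the combination. MKI67, the coat protein of mitotic chromosomes used as the Ki-67 marker of proliferation (chromosome 10, 128096659 to 128126423), had 272, 269 and 272 CPM in the combination, 623, 637 and 578 CPM in romidepsin, 968, 1002 and 1041 CPM in afatinib and 1438, 1432 and 1653 CPM in DMSO. No group overlapped another, and the fall was 5.57-fold with the combination (log2 -2.48 ± 0.059, edgeR adjusted p = 2.16e-36), 2.46-fold with romidepsin and 1.5-fold with afatinib. TOP2A, the topoisomerase that untangles sister chromatids (chromosome 17, 40388525 to 40417896), had 142, 142 and 144 CPM in the combination, 311, 334 and 292 CPM in romidepsin, 292, 307 and 309 CPM in afatinib and 499, 473 and 469 CPM in DMSO. For TOP2A the single drugs overlapped, at -0.62 with romidepsin and -0.67 with afatinib, and the combination was -1.75. Condensin packs the chromosomes. NCAPH, a subunit of condensin I (chromosome 2, 96335766 to 96377091), had 27.2, 28.1 and 27.1 CPM in the combination, 65.2, 63.5 and 60.9 CPM in romidepsin, 36.9, 33.8 and 36.7 CPM in afatinib and 57.1, 57.9 and 61.5 CPM in DMSO. Afatinib lowered NCAPH (-0.71 ± 0.080), the romidepsin libraries overlapped DMSO (0.10 ± 0.076, adjusted p = 0.243), and the combination (-1.10 ± 0.081) lay below afatinib (-0.38). NCAPG, a further subunit (chromosome 4, 17810979 to 17844865), had 13.9, 13.8 and 14.7 CPM in the combination, 26.2, 24.4 and 23.7 CPM in romidepsin, 27.3, 27.3 and 31.2 CPM in afatinib and 40.1, 44 and 40.03 CPM in DMSO, and 33.7% of its exon bases overlap another gene on the other strand. SMC4, a core ATPase of condensin (chromosome 3, 160399274 to 160434954), had 64.8, 61.3 and 61.3 CPM in the combination, 62.2, 66.7 and 72.1 CPM in romidepsin, 70.9, 70.9 and 75.6 CPM in afatinib and 87, 81.4 and 91.3 CPM in DMSO. Its changes were -0.47, -0.37 and -0.26, and 22% of its exon bases overlap other genes. The change with afatinib was -0.16 and not called with library size as the only scaling (adjusted p = 0.0708). SMC2, its partner, changed by -1.43, -0.73 and -0.46.

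CDCA2, which brings a phosphatase to chromosomes as cells leave mitosis, and PTTG1 were the only members called higher than DMSO in any of the 3 comparisons. CDCA2 had 56.1, 60.6 and 54.8 CPM in the combination, 46.6, 52.5 and 45.2 CPM in romidepsin, 40.5, 41 and 39 CPM in afatinib and 41.4, 38.4 and 40.5 CPM in DMSO. The combination was 0.51 ± 0.080 above DMSO (adjusted p = 2.02e-07) and romidepsin 0.26 ± 0.083 (adjusted p = 0.00613), and afatinib overlapped DMSO (0.0022 ± 0.083, adjusted p = 0.988). Without romidepsin replicate 2 the romidepsin value was 0.19 and not called (adjusted p = 0.0561), which left 1 member higher in that comparison.

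**Figure D3:**
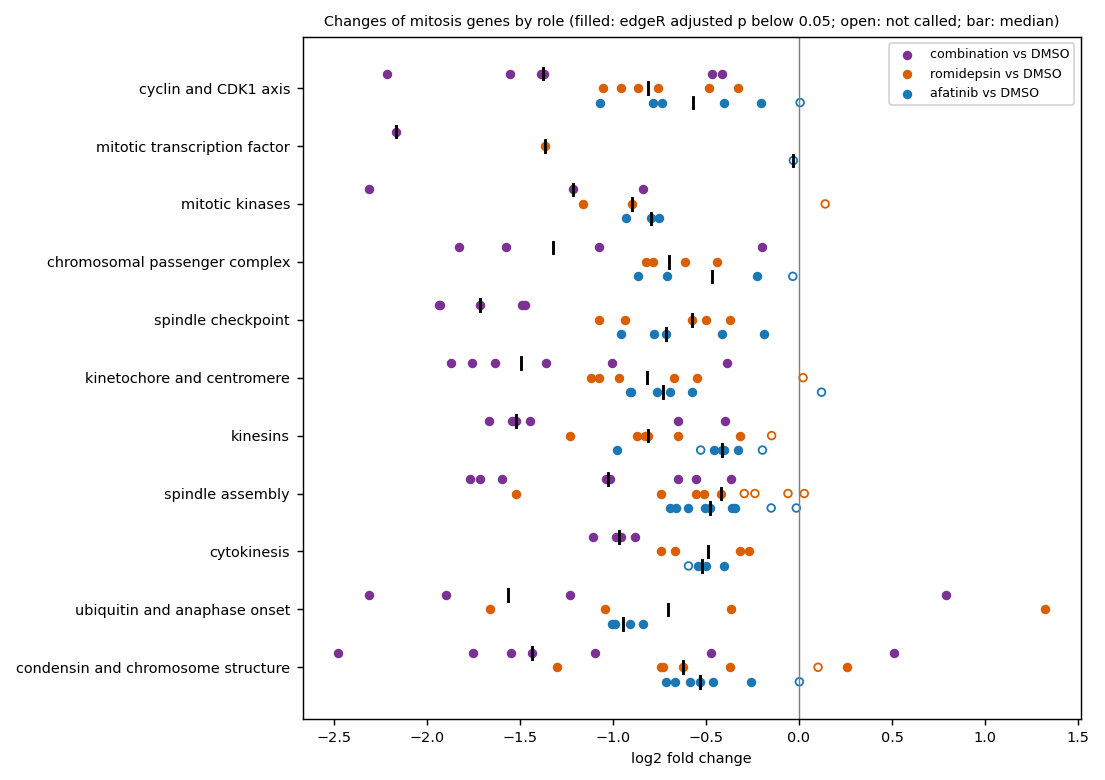
Log2 fold change against DMSO (horizontal axis) of each mitosis gene, grouped by role (vertical axis), for the combination, romidepsin and afatinib. Filled points passed edgeR's test at an adjusted p below 0.05, open points did not, and black bars are medians. The combination's medians lie left of those of both drugs in each of the 11 roles.

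Levels per kilobase of exon spanned a wide range, and can be compared only between genes whose exons share few bases with other genes. CDC20 had the highest in DMSO, and its mean level was 87.6 ± 6.5 CPM per kb in the combination, 159.6 ± 11.4 in romidepsin, 115 ± 3.19 in afatinib and 205 ± 17.4 in DMSO. MKI67 came next in DMSO, with 21.1 ± 0.143, 47.7 ± 2.42, 78.1 ± 2.83 and 117 ± 9.79 CPM per kb in the same order of groups, so that in the combination it stood below AURKB (71.7 ± 1.52). BIRC5 and AURKB were next in DMSO, with 85.8 ± 4.31 and 82.3 ± 2.78 CPM per kb, and their means differed by less than their spread. At the other end, KIF15, with no shared exon bases, had 1.04 ± 0.075 CPM per kb in DMSO. NUSAP1 and PRC1 are not ranked, since most of their exon bases are shared.

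The combination was lower than either drug alone for most members. Against romidepsin 47 members fell, 3 rose and 6 were not called (median -0.70; 29.2% of all genes lower, 25.1% higher), and against afatinib 47 fell, 3 rose and 6 were not called (median -0.69; 35.8% lower, 33.4% higher). Adding afatinib to romidepsin lowered TTK (-1.21), NCAPH (-1.20), MKI67 (-1.18), CCNA2 (-1.17), PLK1 (-1.15) and BUB1 (-1.11) by more than 2-fold, among 13 members that were (4.8% of all genes). It raised CDC25B (0.55), AURKB (0.25) and CDCA2 (0.25), and the last call was lost without romidepsin replicate 3 (0.20, adjusted p = 0.0648). Adding romidepsin to afatinib lowered FOXM1 (-2.13), MKI67 (-1.89) and BUB3 (-1.74) most, among 20 members at least 2-fold lower (15.8% of all genes), and raised PTTG1 (1.70), CDCA2 (0.51) and CENPE (0.38). Without the 4 libraries with keratin reads these counts were 45 lower and 3 higher against romidepsin (23.7% and 22.7% of all genes) and 44 lower and 3 higher against afatinib (29.5% and 30.2%). Both comparisons use the same combination libraries.

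Set directly against each other, the drugs differed in both directions, among members as among all tested genes. Between romidepsin and afatinib, 23 members were lower in romidepsin, 19 were higher and 14 were not called (median -0.13; 32.4% of all genes lower, 32.2% higher). Lower with romidepsin were FOXM1 (-1.34 ± 0.062), GTSE1 (-1.01 ± 0.078), BUB3 (-0.89 ± 0.061), CDC25B (-0.76 ± 0.061), MKI67 (-0.71 ± 0.056) and UBE2C (-0.65 ± 0.11). Higher with romidepsin were PTTG1 (2.23 ± 0.073), NEK2 (0.94 ± 0.11), NCAPH (0.82 ± 0.079), CENPE (0.79 ± 0.092), BUB1 (0.58 ± 0.089), CDC20 (0.47 ± 0.062) and CDK1 (0.41 ± 0.081). With library size as the only scaling, 12 members were higher and 27 lower. The calls of all genes moved the same way, to 4634 higher and 5856 lower, against 5220 and 5256 in the main test. Leaving out 1 library gave 13 to 19 higher, and without the 4 libraries with keratin reads 21 were lower and 18 higher (28.1% and 29% of all genes).

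For most members the log2 change of the combination did not pass the test of a departure from additivity, that is from the added log2 changes of romidepsin alone and afatinib alone. This interaction was called negative, so a lower level than additivity gives, for 15 members, positive for 6 and not called for 35 (median -0.15, and -0.06 over all genes; 18.5% of all genes negative, 11.7% positive). The most negative were FOXM1 (-0.77 ± 0.089, adjusted p = 1.59e-09), BUB3 (-0.67 ± 0.088, adjusted p = 3.84e-08) and MKI67 (-0.59 ± 0.079, adjusted p = 5.21e-08). The most positive were CDC25B (0.75 ± 0.085, adjusted p = 9.26e-10), CCNB1 (0.44 ± 0.13, adjusted p = 0.00756) and AURKA (0.43 ± 0.095, adjusted p = 0.00035). Without the 4 libraries with keratin reads, 7 members were negative and 1 positive, against 11.8% and 7.34% of all genes, so the members' share is close to that of all genes for negative calls and not above it for positive calls. Of these 7 and 1 members, 6 and 1 were also called with all 12 libraries. FOXM1 (-0.81), BUB3 (-0.73), CCNA2 (-0.53), TOP2A (-0.49), BIRC5 (-0.45) and MKI67 (-0.44) were still called negative and CDC25B (0.74) positive, and CCNB1 (0.23, adjusted p = 0.381) and AURKA (0.36, adjusted p = 0.0512) were not called. CCNB1 was also not called without combination replicate 1 (0.34, adjusted p = 0.0535).

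**Figure D4:**
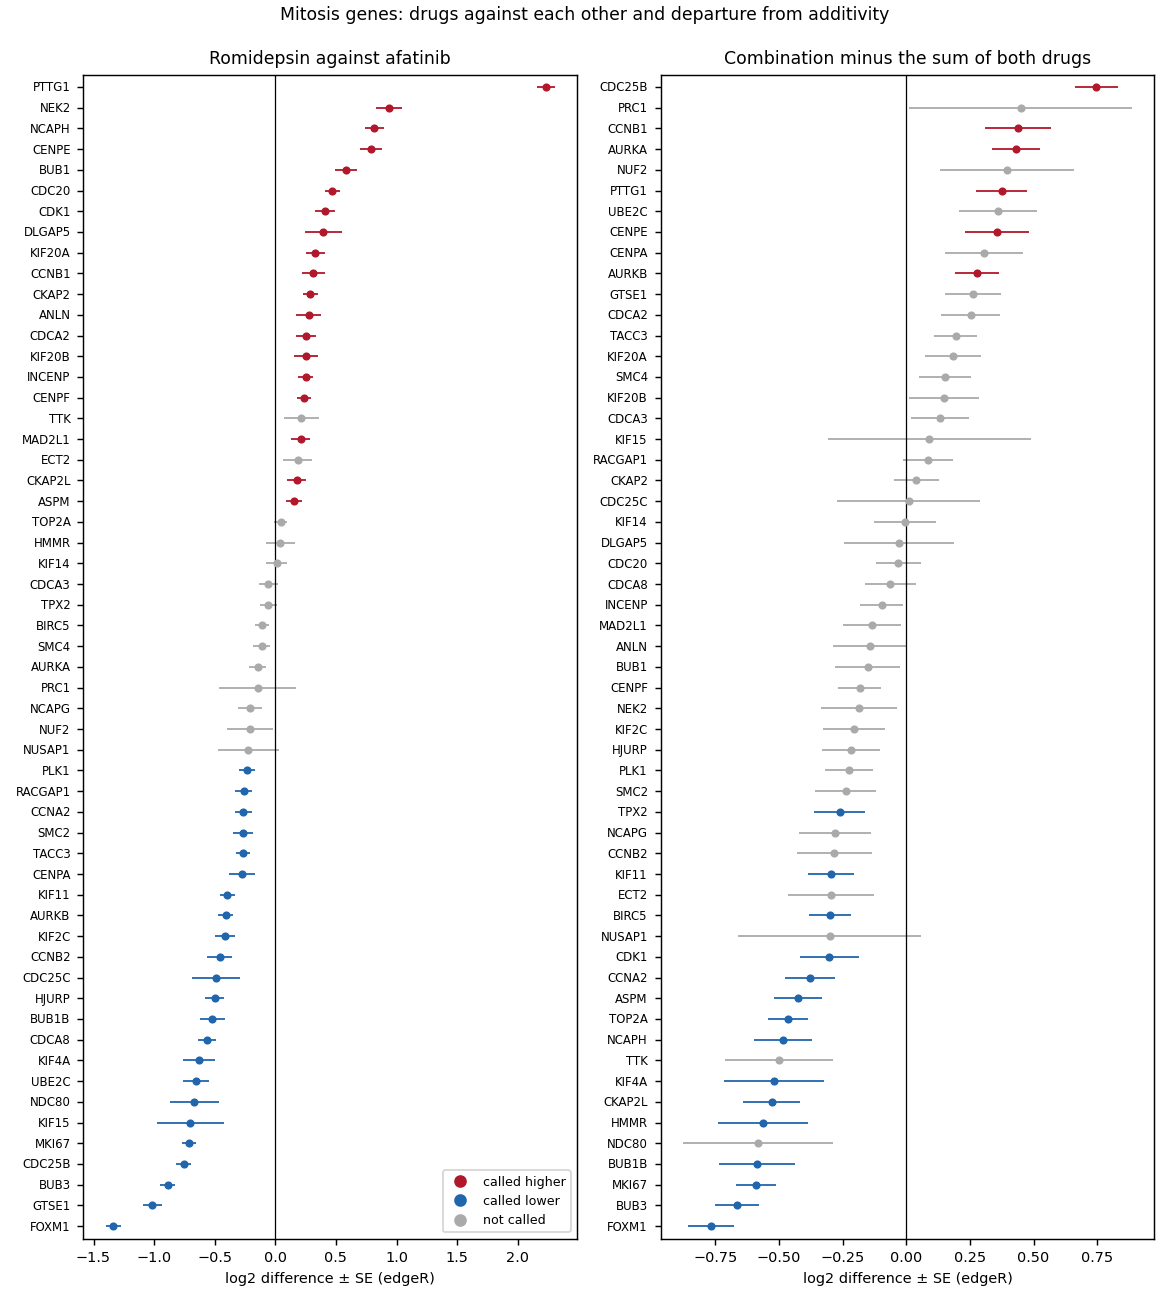
Log2 difference ± SE of 56 mitosis genes between romidepsin and afatinib (left) and between the combination and the sum of both drugs' changes (right), each sorted by value, in red where called higher, blue where called lower and grey where not called. PTTG1 stands at 2.23 and FOXM1 at -1.34 on the left, and CDC25B at 0.75 and FOXM1 at -0.77 on the right.

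Other genes of the cell cycle were read from lists beside the members. For comparison with all counts of these lists, 37.1% of all tested genes were lower and 37.2% higher with the combination. The shares were 31.5% and 31.1% with romidepsin, and 23.3% and 22% with afatinib. Of 63 tested further mitosis genes, 53 were lower and 3 higher with the combination, 44 and 3 with romidepsin, and 34 and 4 with afatinib, at medians of -1.04, -0.69 and -0.33. SPC24, a kinetochore subunit, PMF1 and ZWINT, of the same structure, led the list in the combination (-3.23, -2.60 and -2.51). MAD1L1, a checkpoint protein, was lower with romidepsin (-1.65) and higher with afatinib (0.90). Cohesin, which holds sister chromatids together, fell in 9 of 10 genes with the combination, 8 with romidepsin (1 rose) and 5 with afatinib, led by STAG2 (-2.71) and RAD21 (-2.54) in the combination. In the core of the anaphase promoting complex, 11 of 15 genes fell and 2 rose with the combination, 9 and 2 with romidepsin, and 6 and 2 with afatinib. Among these, ANAPC7 was -1.37 with the combination and ANAPC16 0.71 with afatinib.

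The DREAM, MuvB and NF-Y components were mixed, with 8 of 15 lower and 5 higher in the combination, 9 and 4 in romidepsin, and 4 and 1 in afatinib. Their higher calls with the combination and their lower calls with afatinib were near the shares of all genes. LIN9 of the MuvB core (-1.92), TFDP1, the partner of E2F factors (-1.77), and MYBL2, which encodes B-MYB (-1.58), fell with the combination. The CDK inhibitors CDKN1A and CDKN2D rose in all 3 treated groups, whereas CDKN2C fell with the combination (-1.19) and with romidepsin (-0.98). CDKN1A, which encodes p21, had 1086, 1076 and 1095 CPM in the combination, 1319, 1292 and 1238 CPM in romidepsin, 403, 412 and 395 CPM in afatinib and 314, 303 and 273 CPM in DMSO. Its log2 change was 1.87 ± 0.055 with the combination, 2.11 ± 0.055 with romidepsin and 0.44 ± 0.054 with afatinib, and CDKN2D, p19, was at 1.93, 1.51 and 0.55. Of the 5 tested inhibitors, 2 rose and 2 fell with the combination, 3 rose and 2 fell with romidepsin, and 3 rose and 0 fell with afatinib. The counts with the combination were near the shares of all genes.

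S phase genes, which act in DNA replication before mitosis, fell in most cases with the combination and romidepsin. Of 22 tested, 19 fell and 3 rose with the combination, 19 fell and 2 rose with romidepsin, and 11 fell and 4 rose with afatinib, at medians of -1.12, -0.99 and -0.15. MCM5, a subunit of the replicative helicase, was -2.56 with the combination and -1.76 with romidepsin. Tubulins, the building blocks of microtubules, changed in both directions, with 3 of 8 higher and 5 lower in the combination, 4 and 4 in romidepsin, and 1 and 5 in afatinib. Their higher calls with the combination were near the share of all genes. TUBB2A (4.20) and TUBA1A (2.62) rose with the combination, and TUBB fell (-1.89).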

How the data were processed

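Values were deposited as raw counts of paired reads for each gene name. Per the file headers, featureCounts 2.0.0 made them with GENCODE 31, left out reads mapped to several places and ignored the strand. STAR 2.7.9a, GRCh38.p12 and DESeq2 1.38.1 are named in the submitters' processing notes. Reads of near-identical or overlapping genes are therefore uncertain. Coordinates and the overlap of exons are those of the gene models in the count table itself. The other table, which the authors called normalized counts, was left out (12 columns): over its 13302 matched genes the Spearman correlation with the counts was 0.0217 to 0.0492.

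The treatment labels gave 4 groups of 3 libraries. Genes were kept by filterByExpr (16208 of 59050) and scaled by TMM. The test was edgeR 4.0.16 in R 4.3.3 (robust quasi-likelihood fit, two-sided), with 1 mean per group fitted to all 12 libraries. Benjamini-Hochberg adjustment covered the 16208 genes, and the threshold was 0.05. The biological coefficient of variation was 6.13%. CPM are deposited counts scaled by library size and TMM factors. The test was also run on simulated data with known changes.

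Members, gene lists, tests and the naming rule were all chosen with earlier results of these data known. By that rule, values in every library were given for 20 members set by hand, for the member with the largest called change in each role in each comparison with DMSO, for members called higher than DMSO, and for the 3 most positive and 3 most negative interactions. From each further list up to 3 genes per comparison with DMSO with the largest called change and a mean of at least 5 CPM could be named, and the text names some of them. Other members were named to account for each role or for a single lost call. The remaining listed genes of the MuvB core were named so that both directions are shown. Alternatives were RLE scaling, library size only, DESeq2 1.42.0, no filter, a minimum of 1 CPM in 3 libraries, only the groups compared, a replicate block, leaving out each of the 12 libraries, and, added after seeing the data, leaving out the 4 libraries with more than 10 counts of KRT5.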

Additional observations from a re-analysis of the deposited data

Results flagged for a closer look

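By edgeR's interaction test, the effect of a drug differed between cells with and without the other drug for 21 of the 56 mitosis genes. It was negative, in order of size, for FOXM1 (-0.77), BUB3 (-0.67), MKI67 (-0.59), BUB1B (-0.59), HMMR (-0.56), CKAP2L (-0.53), KIF4A (-0.52), NCAPH (-0.48), TOP2A (-0.47), ASPM (-0.42), CCNA2 (-0.38), CDK1 (-0.30), BIRC5 (-0.30), KIF11 (-0.30) and TPX2 (-0.26). It was positive for CDC25B (0.75), CCNB1 (0.44), AURKA (0.43), PTTG1 (0.37), CENPE (0.36) and AURKB (0.28). Over all tested genes, 18.5% were called negative and 11.7% positive.

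Of these 21, 7 were still called without the 4 libraries with keratin reads (FOXM1, BUB3, MKI67, TOP2A, CCNA2, BIRC5 and CDC25B). In that setting 7 members were negative and 1 positive, beside 11.8% and 7.34% of all genes, so member calls were about as frequent as those of all genes or less so. The call of TPX2 was lost in 12 alternatives, CDK1 in 12, KIF4A in 11 and CENPE in 6. With 1 library left out, TPX2 lost its call at -0.28 to -0.20 (without combination replicate 1 or 2, romidepsin replicate 1, afatinib replicate 1 or 3, or DMSO replicate 1 or 3). CDK1 lost it at -0.31 to -0.25 (without combination replicate 1 or 3, romidepsin replicate 2 or 3, afatinib replicate 1 or 3, or DMSO replicate 1 or 2), and KIF4A at -0.54 to -0.40 (without combination replicate 1, romidepsin replicate 2 or 3, afatinib replicate 1 or 2, or DMSO replicate 2 or 3). CENPE lost it at 0.30 to 0.35 (without combination replicate 3, romidepsin replicate 1 or 3, afatinib replicate 2 or DMSO replicate 3). KIF11 (-0.23) and AURKB (0.23) were not called without afatinib replicate 3, nor CCNB1 (0.34) without combination replicate 1.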

How the results depend on the processing

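Across 313 called values of single members, 6239 alternative values kept their direction, of which 213 no longer passed the threshold. The members lower against DMSO numbered 51 to 54 for the combination, 42 to 46 for romidepsin and 45 to 47 for afatinib when 1 library was left out. Of 16688 to 16842 genes tested in those fits, 5586 to 6147, 4737 to 5162 and 3185 to 3842 were lower. The members lower in the combination than in romidepsin and afatinib numbered 45 to 47 and 45 to 48, beside 4435 to 4954 and 5306 to 5974 of all genes. Members higher with romidepsin than DMSO numbered 1 to 2, with 1 without romidepsin replicate 2, beside 4828 to 5258 of all genes. Negative and positive interactions numbered 12 to 15 and 5 to 8, beside 2551 to 2973 and 1643 to 1823 of all genes. Members higher in romidepsin than in afatinib numbered 19, and 12 with library size only, where 5220 and 4634 of all genes were. With 1 library left out, 13 to 19 members were higher there, beside 4991 to 5387 of all genes. Without the 4 libraries with keratin reads, 7 interactions were negative and 1 positive, beside 11.8% and 7.34% of all genes (18.5% and 11.7% in the main test), and the cause was not tested. That setting keeps 8 libraries. DESeq2 called 52 members lower and 2 higher in the combination than in DMSO, 44 and 2 in romidepsin, and 46 and 0 in afatinib. Of all 16208 genes it called 5652 lower and 6015 higher, 4872 and 4877, and 3590 and 3225. With library size only, the median of all genes moved to 0.10 for the combination and afatinib against DMSO, and 4606 genes were then higher and 2803 lower with afatinib, against 3571 and 3780 in the main test. The replicate numbers did not pair the libraries: deviations of same-numbered libraries correlated at -0.0899 to 0.0894, and 4 of 12 libraries correlated best with their own number. A replicate block gave 53 members lower and 2 higher for the combination, 46 and 2 for romidepsin, 46 and 0 for afatinib, and 14 negative and 6 positive interactions. Of all 16208 genes the block gave 5970 and 5998, 5055 and 4995, 3710 and 3513, and 2947 and 1849, in the same order. Values that were not called changed sign for CDCA2 with afatinib (-0.0039 with RLE scaling and with DESeq2, -0.028 with no filter, -0.029 to 0.046 with 1 library left out), for CDC25C with afatinib (-0.023 with no filter, -0.12 to 0.16 with 1 library left out, -0.11 without the keratin libraries), for FOXM1 with afatinib (0.069 with library size only, 0.040 without the keratin libraries), for AURKB with afatinib (0.066 with library size only, -0.088 to 0.042 with 1 library left out, 0.087 without the keratin libraries), for NUSAP1 with afatinib (0.086 with library size only, -0.085 to 0.087 with 1 library left out), and with romidepsin for CENPE (-0.0050 with no filter), CKAP2L (-0.0039 to 0.065 with 1 library left out) and CKAP2 (0.022 without the keratin libraries). The lowest totals over all libraries were 307 counts for PRC1, 447 for NUSAP1 and 450 for KIF15.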
